A study of Mus musculus with 16 samples.

Results

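The imprinted Dlk1-Dio3 cluster of mouse chromosome 12 was followed through 6 of its genes, Dlk1, Meg3, Rtl1, Rian, Mirg and Dio3. An assembled transcript was counted for a gene where its largest overlap with exons on the same strand, among GENCODE M21 genes on GRCm38, was with that gene. By this rule 47 of 137653 assembled transcripts belonged to the 6 genes, and each gene was the whole of 1 assembled gene model. A further 51 transcripts, in 42 other models, lay between Dlk1 and Dio3. The tissues of adult C57BL/6J mice were 4 from brain (cerebellum, olfactory bulb, cortex and the whole brain) and 4 nonbrain tissues (a tissue labelled testis, liver, kidney and heart). RNA of each tissue was captured once with probes against lncRNAs, the lncRNA design, and once with probes against annotated splice junctions, the splice junction design, so that every tissue has 1 library of each kind. The mice carried no stated modification and received no stated treatment, and neither their number nor whether tissues came from the same animals is given in the sources used here.

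In this cluster the protein-coding genes Dlk1, Rtl1 and Dio3 are known to be expressed from the paternal chromosome and the noncoding genes Meg3, Rian and Mirg from the maternal chromosome. Dlk1 encodes a membrane protein related to Notch ligands, Rtl1 a protein derived from a retrotransposon, and Dio3 the deiodinase that inactivates thyroid hormone. The noncoding RNAs are read in the same direction, host many snoRNAs and microRNAs, and are well known in brain. None of these libraries distinguishes the parental alleles, and none measures mature microRNAs.

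The unit of comparison between brain and nonbrain tissues was the tissue (n = 4 in each group), so the spread is that between different tissues, and the brain regions are parts of the brain. Brain and nonbrain RNA was extracted with different reagents, hybridized in separate pools and amplified for different numbers of cycles, so tissue class and these steps cannot be told apart. The label testis did not hold against its markers. The 8 germ-cell genes listed summed to 40.0 there in the splice junction design, the lowest of the 8 tissues, while 8 keratinocyte genes summed to 108166, the highest. They are called the tissue labelled testis, and each main result was also fitted without it. Neuronal markers (8 measured of 9) summed to 19203 to 30571 in the brain tissues and 13.3 to 900 in the nonbrain tissues of that design. Libraries held 8930235 to 43889288 fragments, and ERCC spike-ins took 7.81% to 45.6% of their values. Whole brain, cerebellum, heart and liver shared a spike-in mix, and cortex, olfactory bulb, kidney and the tissue labelled testis had the other mix. The part of the mix in the values was not tested. In bulk tissue, fewer expressing cells and less RNA per cell cannot be told apart.

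Meg3, the maternally expressed noncoding RNA at the head of the noncoding stretch, spans chr12:109541001-109571726 on the plus strand. Its RefSeq start region is shown because the results turn on this gene, with capitals for TGACGTCA, the letters of a cAMP response element, and for the TATA box letters TATAAA. Both motifs were searched on both strands. The window runs from 250 bases before the start to 50 bases after it (chr12:109540746-109541045, plus strand, RefSeq on GRCm38.p6).
Meg3 start region: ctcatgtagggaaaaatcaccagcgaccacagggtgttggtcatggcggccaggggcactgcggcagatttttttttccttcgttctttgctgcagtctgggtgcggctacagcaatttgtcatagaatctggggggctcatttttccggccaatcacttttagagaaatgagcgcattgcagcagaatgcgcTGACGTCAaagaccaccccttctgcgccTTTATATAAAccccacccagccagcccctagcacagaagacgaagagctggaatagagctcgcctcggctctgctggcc
TGACGTCA begins 57 bases and TATAAA 25 bases before the start, and the reverse reading of TATAAA overlaps the latter. Of 32851 RefSeq windows of this length, 1.79% held TGACGTCA and 13.6% held TATAAA. Among the 5 member genes with a RefSeq window, TATAAA was also found in that of Dio3, 31 bases before the start. Those of Dlk1, Rian and Mirg and a downstream window of Meg3 held neither motif.

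In the lncRNA design, the deposited value of Meg3 (normalized fragments, summed over isoforms) was 41898 in whole brain, 154297 in cerebellum, 327939 in cortex and 242112 in olfactory bulb. It was 1951 in heart, 196 in kidney, 193 in liver and 1404 in the tissue labelled testis. All brain tissues lay above all nonbrain tissues, and the lowest brain value was 21.5 times the highest nonbrain value. In the splice junction design Meg3 was 28.1 in whole brain, 222 in cerebellum, 421 in cortex and 264 in olfactory bulb, and 0 to 1.60 in the nonbrain tissues, where it rested on at most 3 fragments per library. The order cortex, olfactory bulb, cerebellum, whole brain was the same in both designs. Kidney and liver could not be separated in the lncRNA design, with exact 95% Poisson intervals of 162 to 235 and 152 to 242. Such intervals cover counting error only.

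Averaged over both designs, Meg3 rose by 7.24 on the log2 scale in brain (SE 0.81, n = 4 against 4, limma adjusted p = 0.00023), about 152-fold on the log2(value + 1) scale. By size of fold change it ranked 334 among 30790 features tested, of which 22.8% were called higher and 8.61% lower in brain, with a median log2 fold change of 0.35. Groups that did not overlap, with brain higher, were seen in 22.9% of all features and in all 4 members that passed the filter on low values. Without the tissue labelled testis, where 22% of features were called higher, the log2 fold change of Meg3 was 7.54.

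**Figure D1:**
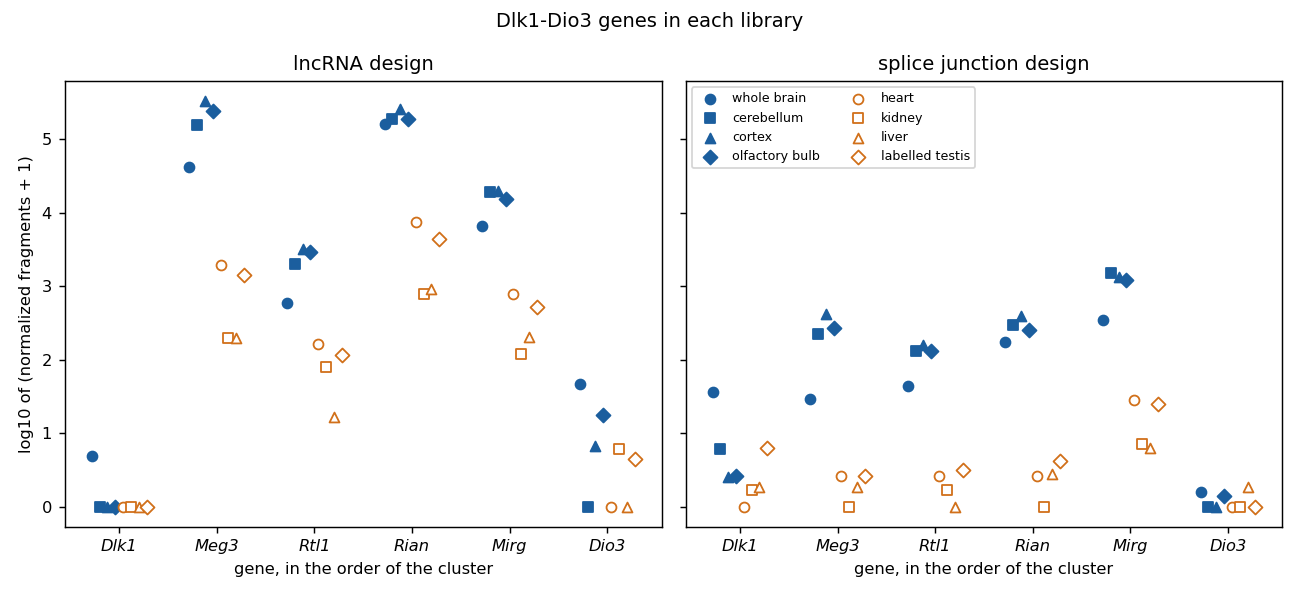
Value of each of the 6 genes in each of the 16 libraries, as log10 of normalized fragments plus 1, with filled symbols for brain and open symbols for nonbrain tissues. Meg3, Rtl1, Rian and Mirg are higher in every brain library than in any nonbrain library of the same design, whereas Dlk1 and Dio3 stay at or below 45.0.

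Meg3 was assembled as 15 isoforms, which fell into 3 structural classes. In 9 isoforms the 3′ part was kept as an exon over 8000 nt, and this exon was 13087 nt in those that keep it to the end of the gene. In 4 isoforms this part was spliced out and the last exon was short, and 2 other isoforms ended upstream of the Mir770 hairpin. The hairpin of Mir770 (chr12:109563692-109563785, plus strand) lay inside the exon of the first class and inside an intron of the second. It is shown with both mature arms in capitals, as RefSeq gives it on GRCm38.p6.
Mir770 hairpin: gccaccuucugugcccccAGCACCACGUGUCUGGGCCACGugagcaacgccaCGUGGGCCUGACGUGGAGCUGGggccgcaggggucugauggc
In the lncRNA design the class with the long exon held 91.0% of the Meg3 value in whole brain, 91.5% in cerebellum, 91.3% in cortex and 90.3% in olfactory bulb. It held 42.7% in heart, 53.6% in kidney, 30.0% in liver and 41.8% in the tissue labelled testis. The brain and nonbrain shares did not overlap. The spliced class held 4.99% to 6.25% in the brain tissues and 29.2% to 65.3% in the nonbrain tissues. In the splice junction design the long exon class held 83.4% to 87.8% in the brain tissues, and the nonbrain libraries had too few fragments for a share.

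These are shares of fragments, and long isoforms yield more fragments per molecule. Per unit of length, the class with the long exon held 53.2% to 56.4% of Meg3 in the brain tissues and 5.93% to 12.4% in the nonbrain tissues of the lncRNA design. The main isoform of brain, TCONS_00027788 (9 exons, 11601 nt), held 53.6% to 61.1% of the fragments in the brain tissues and at most 0.000429% in the nonbrain tissues. The isoform TCONS_00027786 (9 exons, 2066 nt) held 2.0% to 2.9% and 26.5% to 48.3%. TCONS_00027795, which starts downstream and keeps the long exon, held 22.2% to 26.8% and 24.4% to 50.2%, so its ranges overlapped. The nonbrain shares rest on 409 fragments in heart, 116 in kidney, 75 in liver and 1232 in the tissue labelled testis, against 21413 to 233678 in the brain tissues. The division of fragments among isoforms is an estimate of the authors' software, and its error is not in the deposited values.

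**Figure D2:**
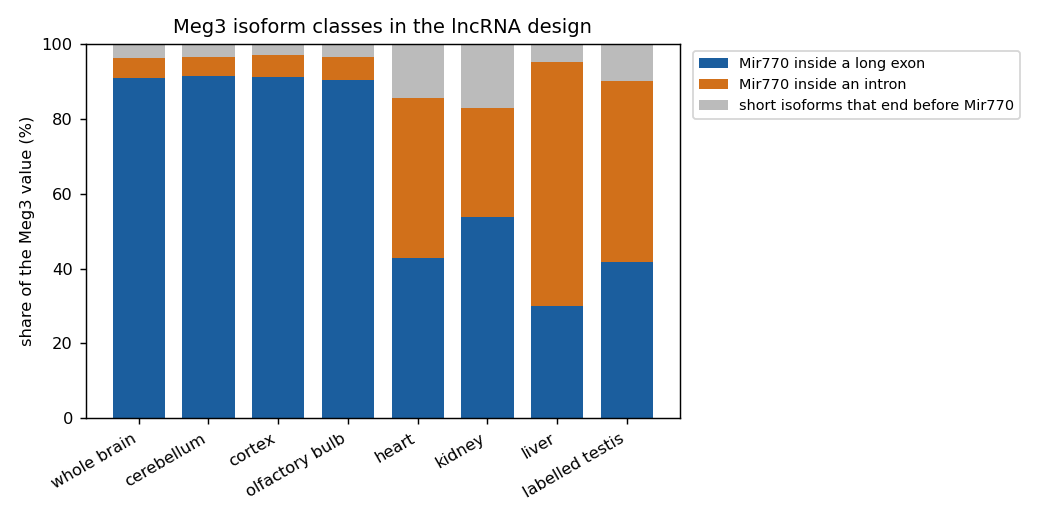
Share of the Meg3 value, in percent, held by each structural class of isoform in the 8 libraries of the lncRNA design (bars stack to 100%). The class with Mir770 inside a long exon takes 90.3% to 91.5% in the brain tissues and 30.0% to 53.6% in the others.

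Rtl1, a coding gene derived from a retrotransposon, lies on the minus strand at chr12:109589193-109600330. The microRNA genes of the plus strand opposite it are shown because their products pair with Rtl1. RefSeq lists 6 hairpins opposite Rtl1 exons, and all 11 of their mature sequences were complementary over their whole length to the annotated Rtl1 transcript of 6358 nt. This follows from their place on the opposite strand and is not a separate result. An arm of each of 5 of them is given 5′ to 3′ with the seed, bases 2 to 8, in capitals.
miR-431-5p: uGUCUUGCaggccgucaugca
miR-433-3p: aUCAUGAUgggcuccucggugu
miR-127-3p: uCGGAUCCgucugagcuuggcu
miR-434-3p: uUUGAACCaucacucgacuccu
miR-136-5p: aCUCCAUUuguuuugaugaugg
The site of miR-127-3p in that transcript, bases 2642 to 2663, reads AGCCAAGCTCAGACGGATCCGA. These 5 seeds all differ.

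The Rtl1 value in the lncRNA design was 587 in whole brain, 2026 in cerebellum, 3197 in cortex and 2881 in olfactory bulb. It was 162 in heart, 79.4 in kidney, 15.4 in liver and 114 in the tissue labelled testis. With the splice junction probes the brain tissues read 43.1, 132, 156 and 131 in the same order and the nonbrain tissues 0 to 2.13, on at most 4 fragments. Brain tissues lay above nonbrain tissues in both designs, as did 19.9% of all features in the lncRNA design and 15% in the other. Rtl1 rose by 5.23 on the log2 scale in brain (SE 0.66, n = 4 against 4, limma adjusted p = 0.00041). The isoform assigned differed between the designs. TCONS_00030087, a 4-exon isoform that reaches upstream to position 109603770, held 97.6% to 99.6% of Rtl1 in the brain tissues of the lncRNA design and 10.8% to 19.1% in the splice junction design. There TCONS_00030084, a 2-exon isoform, held 62.4% to 74.1%, and TCONS_00030086, which has the intron chain of the annotated transcript, held 14.5% to 23.2%.

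On the plus strand opposite Rtl1, 3 models were also higher in brain. All 3 had nonbrain means of 0.560 to 8.97 and passed the minimum mean value of 10 only through brain, which favours a rise. XLOC_011085 is a spliced model of 4 exons at chr12:109593607-109603827, and 85.9% of its exonic bases lie opposite Rtl1 exons. It read 64.6 in whole brain, 84.0 in cerebellum, 109 in cortex and 63.6 in olfactory bulb in the lncRNA design, and 0 to 1.14 in the nonbrain tissues. It rose by 5.39 on the log2 scale (SE 0.42, n = 4 against 4, limma adjusted p = 3.3e-05), having passed the minimum mean value of 10 through its brain libraries alone, and 3 hairpins, Mir434, Mir432 and Mir136, lay in its introns. In the splice junction design it still read 18.5 to 65.2 in the brain tissues. The single-exon models XLOC_011086 and XLOC_011087, opposite the assembled span of Rtl1 but not its exons, rose by 2.77 (SE 0.57) and 3.28 (SE 0.60), the first not past the threshold in the splice junction design alone (limma adjusted p = 0.26), and both were under 2 in every library of the splice junction design. The library kit marks strand, but the use of strand in counting is not given in the sources used here, so reads of a gene and of its antisense partner cannot be told apart.

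Rian, the noncoding host of box C/D snoRNAs also called Meg8, spans chr12:109603940-109661716 on the plus strand. Of 23 GENCODE snoRNA genes between Dlk1 and Dio3, 7 lay in an exon of at least 1 assembled Rian isoform and 6 in its introns only. Rian was 160167 in whole brain, 187603 in cerebellum, 258657 in cortex and 189848 in olfactory bulb in the lncRNA design. It was 7403 in heart, 769 in kidney, 921 in liver and 4364 in the tissue labelled testis. With the splice junction probes the brain tissues read 171, 294, 386 and 253, and the nonbrain tissues 0 to 3.20. Rian was the most even of the 4 called genes across the brain tissues, since cortex was 1.61 times whole brain in the lncRNA design, against 7.83 times for Meg3. The log2 fold change in brain was 6.66 (SE 0.54, n = 4 against 4, limma adjusted p = 4.3e-05).

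Whole brain differed from its regions in the Rian isoforms it held. TCONS_00027823, a 10-exon isoform of the 3′ part that starts at position 109649171, held 35.5% of Rian in whole brain, 7.57% in cerebellum, 14.2% in cortex and 5.29% in olfactory bulb in the lncRNA design. The splice junction design gave 46.7%, 24.2%, 33.6% and 29.5%. Whole brain was the highest of the 4 brain tissues in both designs, and cortex was next. The 4 isoforms that start at position 109646641 or beyond together held 41.2% of Rian in whole brain against 8.00% to 17.4% in the 3 regions of the lncRNA design, and 65.1% against 39.3% to 47.0% in the other. Isoforms that start at the 5′ end of the gene held 55.5% in whole brain against 71.1% to 79.2%. The isoform TCONS_00027816, with a 5253-nt exon, held 8.3% in whole brain and 19.4% to 21.8% in the regions. With 1 library per tissue no test of these shares was made. In the whole-brain library of the lncRNA design single-exon transcripts took 18.1% of values and ERCC spike-ins 31.9%, against 34.6% to 47.5% and 9.02% to 16.3% in the regions, and their part in these shares was not tested.

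**Figure D3:**
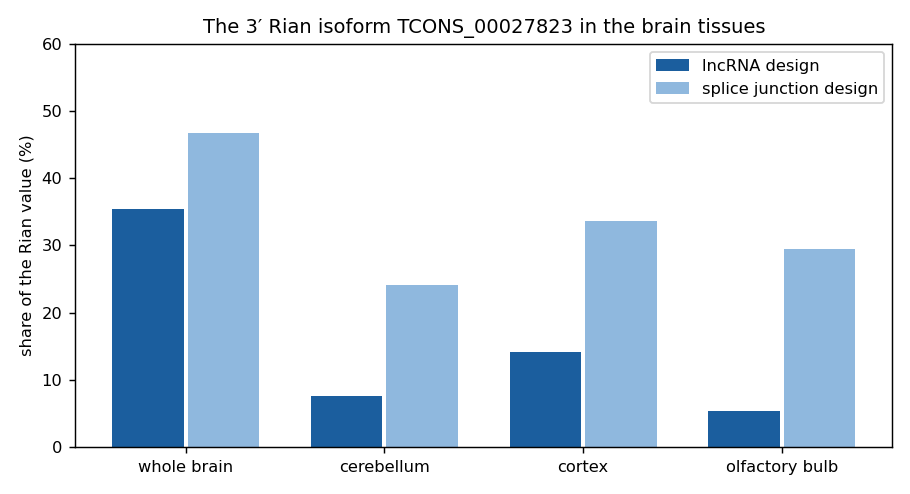
Share of the Rian value, in percent, held by the 3′ isoform TCONS_00027823 in the 4 brain tissues, for each design. Whole brain has the highest share in both designs, 35.5% and 46.7%.

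Mirg, the noncoding gene of the large microRNA cluster at the end of the noncoding stretch, spans chr12:109729764-109749460. RefSeq lists 54 hairpins of the plus strand between Dlk1 and Dio3, with 101 mature sequences, and 5 mature sequences of the stretch have no hairpin entry. In the assembly 9 hairpins overlapped an exon of a Mirg isoform, 1 an exon of Meg3 and none an exon of Rian. Introns of Mirg isoforms held 12 hairpins. Mir377, Mir412, Mir369 and Mir3072 were in an exon of some Mirg isoforms and in an intron of others, so they count in both. A further 11, from Mir379 to Mir1193, lay in an intron of B830012L14Rik, a lincRNA model upstream of Mirg, 3 lay in introns of Rian, and 18 lay in no exon or intron of a plus-strand model other than one annotated as a small RNA gene. Of the latter, the model that holds Mir376c, XLOC_011106, is a single exon of 709 nt and read at most 6.91 in any library. In this region 9 seeds were each shared by 2 mature sequences. Of the pairs below, the first has both hairpins in the B830012L14Rik intron, and the other has Mir494 in that intron and Mir410 in a Mirg exon.
miR-379-5p: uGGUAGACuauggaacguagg
miR-1193-5p: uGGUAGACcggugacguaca
miR-494-5p: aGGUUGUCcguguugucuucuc
miR-410-5p: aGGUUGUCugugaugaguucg

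Mirg was 6641 in whole brain, 19210 in cerebellum, 19838 in cortex and 15282 in olfactory bulb in the lncRNA design. It was 792 in heart, 120 in kidney, 203 in liver and 513 in the tissue labelled testis. With the splice junction probes it read 341, 1493, 1312 and 1193 in the brain tissues and 5.22 to 27.3 in the nonbrain tissues, so the groups did not overlap in either design. This was so, with brain higher, for 19.9% of all features in the lncRNA design and 15% in the other. Mirg rose by 5.81 on the log2 scale in brain (SE 0.64, n = 4 against 4, limma adjusted p = 0.00021). Its main isoform in the lncRNA design was TCONS_00027853, with 13 exons and an end at position 109741503, at 32.8% to 49.0% in the brain tissues and 41.7% to 57.0% in the nonbrain tissues. This isoform held 3.87% to 4.72% in the brain tissues of the splice junction design, where TCONS_00027852 held 39.0% to 56.0% and TCONS_00027855 19.8% to 38.1%. TCONS_00027852 starts at position 109726106, upstream of the annotated start.

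Per kb of assembled isoform length, the Rian value in the lncRNA design was 13.8 times that of Meg3 in whole brain, 3.89 times in cerebellum, 2.29 times in cortex and 2.33 times in olfactory bulb, and 3.76 to 7.64 times in the nonbrain tissues. The Mirg value per kb was 0.116 to 0.318 times that of Meg3 in the brain tissues of the lncRNA design but 4.42 to 18.5 times in those of the splice junction design. Levels between genes therefore depended on the probe set. Together Meg3, Rian and Mirg took 0.583% of all values in whole brain, 1.42% in cerebellum, 2.12% in cortex and 1.66% in olfactory bulb in the lncRNA design, and 0.00254% to 0.0261% in the nonbrain tissues. These totals include the ERCC spike-ins. Without them the brain shares were 0.856%, 1.67%, 2.54% and 1.83% in the same order, and the nonbrain shares 0.00467% to 0.0354%.

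Dlk1 and Dio3, the protein-coding genes at the ends of the cluster, were near the limit of detection in most libraries and did not pass the minimum mean value of 10. Dlk1 (chr12:109452823-109463336) was 34.7 in whole brain in the splice junction design, on 120 fragments, with an exact 95% Poisson interval of 28.8 to 41.5. It was 4.98 in cerebellum, 1.49 in cortex, 1.62 in olfactory bulb and 5.33 in the tissue labelled testis, and 0 to 0.870 in heart, kidney and liver. Whole brain lay above all other tissues by more than counting error. In the lncRNA design Dlk1 had 2 fragments in whole brain and 0 in the 7 other libraries. Of the Dlk1 value in whole brain of the splice junction design, 62.1% was in TCONS_00027782, a 4-exon isoform of 1283 nt with the intron chain of an annotated transcript, and 37.1% in TCONS_00027778, a 7-exon isoform of the full span.

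Dio3, a single-exon gene at chr12:110279068-110281097, was 45.0 in whole brain in the lncRNA design, on 23 fragments (interval 28.5 to 67.5). It was 16.6 in olfactory bulb, 5.61 in cortex, 5.07 in kidney and 3.42 in the tissue labelled testis. No fragment was counted in cerebellum, heart and liver, which allows values of up to 3.94, 14.3 and 7.72 at the limit of 3 fragments. The interval of olfactory bulb was 8.57 to 29.0, and its difference from whole brain was not tested. Under the splice junction probes Dio3 had at most 2 fragments in any library. Without the filter on low values, over 45490 features of which 19.3% were called higher in brain, Dlk1 had a log2 fold change of 1.05 (limma adjusted p = 0.28) and Dio3 of 0.99 (adjusted p = 0.29), and neither passed the threshold.

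The hypothalamic neuropeptide genes Oxt, Avp, Hcrt and Pomc were also highest in whole brain in the splice junction design, at 55.3, 43.1, 35.6 and 18.5, and at most 3.72 in the 7 other tissues. Of the 7 hypothalamus genes listed, Agrp and Trh were highest in another tissue, and Pmch was barely detected. Agrp was 12.4 in whole brain, 12.7 in cerebellum, 10.0 in cortex and 12.1 in olfactory bulb, and highest in the tissue labelled testis at 27.7. Pmch read 0.868 in whole brain and 0 elsewhere. Trh was highest in olfactory bulb, at 1895, and brought the summed level of the list to 546.6 in whole brain and 25.7 to 1913 in the regions. The part of these cells in the Dlk1 and Dio3 values was not tested.

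Meg3, Rtl1, Rian and Mirg went the other way, since whole brain was the lowest of the 4 brain tissues for each of them in both designs. The whole-brain value over the median of the 3 regions was 0.173 for Meg3, 0.204 for Rtl1, 0.844 for Rian and 0.346 for Mirg in the lncRNA design. The splice junction design gave 0.106, 0.328, 0.581 and 0.260. Of all features with a value of at least 10 in a brain tissue, whole brain was the lowest for 41.3% with lncRNA probes and 27.3% with splice junction probes. On the log2 scale Meg3 was lower in whole brain than the regional median by 3.19 in the splice junction design, and 1.29% of 16378 features had a lower difference. By contrast 10.5% of 26343 features in the lncRNA design had a lower difference than Meg3, and 49.8% a lower one than Rian.

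**Figure D4:**
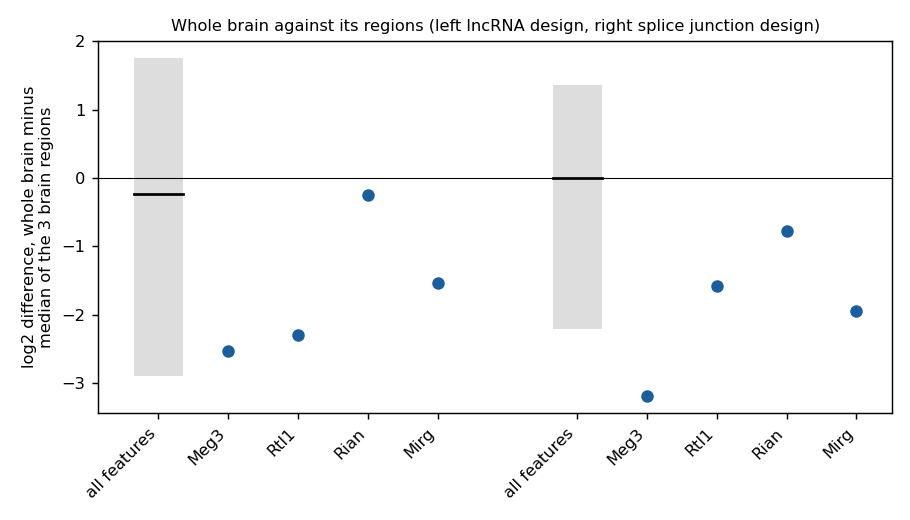
Log2 difference of whole brain from the median of cerebellum, cortex and olfactory bulb for the 4 called genes (points), beside the 5th to 95th percentile (grey bar) and median (line) of all features, in each design. Meg3 lies below the bar in the splice junction design, and Rian is near the median of all features in the lncRNA design.

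The next comparison sets the values of these genes in the lncRNA design against those in the splice junction design. All 4 called genes had higher values in the lncRNA design in each of the 8 tissues they were compared in. Of all features, 59.8% were called higher and 34.4% lower there, with a median log2 difference of 2.62. The scaling differed too, since a fragment stood for a value of 1.14 to 4.77 in the lncRNA libraries and 0.289 to 1.60 in the others. In every tissue it stood for more in the lncRNA design. Mirg in whole brain was 6641 against 341 in value, but 3394 against 1178 in fragments. The differences given here are in value, and the parts of scaling and capture in them were not separated. The log2 difference of the lncRNA design over the splice junction design was 9.70 for Rian (SE 0.27) and 9.04 for Meg3 (SE 0.37), against 4.66 for Rtl1 (SE 0.27) and 4.23 for Mirg (SE 0.18), all with n = 8 tissues. Their limma adjusted p-values were 2.7e-11, 4.1e-10, 9.7e-09 and 4.9e-10. Rian ranked 285 and Meg3 954 among 30790 features, whereas Rtl1 ranked 10832 and Mirg 11950. Rtl1 is protein coding, and its summed value was still higher in the lncRNA design, where nearly all of it was in TCONS_00030087. The other isoforms named for Rtl1 went the other way. TCONS_00030086, with the annotated intron chain, read at most 23.0 there and 36.1 in the splice junction design. TCONS_00030084 read at most 0.0435 and 103. Dlk1 ran the other way in whole brain, at 34.7 in the splice junction design and 3.91 in the lncRNA design, without a test.

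The brain difference of the 4 genes was called in each design alone. In the lncRNA design, where 18.5% of features were called higher in brain, the log2 fold changes were 8.05 for Meg3, 4.69 for Rtl1, 6.48 for Rian and 5.47 for Mirg. For the splice junction design, where 12.4% were called higher, they were 6.44, 5.77, 6.83 and 6.16. The nonbrain values there were 0 to 1.60 for Meg3, 0 to 2.13 for Rtl1 and 0 to 3.20 for Rian. For these genes the sizes of the fold changes there, and of the differences that follow, depend on the pseudocount of 1. The difference between the designs was 1.60 for Meg3 (limma adjusted p = 0.12), -1.08 for Rtl1 (0.23), -0.34 for Rian (0.75) and -0.69 for Mirg (0.35), and none passed the threshold, against 18.7% of all features.

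The other assembled models between Dlk1 and Dio3 were compared in the same fit. Of 42 such models, 21 were at 0 in every library, all of them small RNA genes, and 11 passed the minimum mean value. Of these 11, 10 rose in brain and none fell, with a median log2 fold change of 3.55 and a range of -1.26 to 5.39. XLOC_011085, XLOC_011086 and XLOC_011087 had nonbrain means of 0.560, 6.75 and 8.97 and passed the minimum only through brain, which a higher value in brain favours, and 7 of the other 8 models rose. They were taken for their position, and 22.8% of all features were called higher. Gm26906, a lincRNA of the minus strand whose 1228 exonic bases all lie opposite the 3′ end of Meg3, read 1949 in whole brain, 11826 in cerebellum, 15252 in cortex and 14547 in olfactory bulb in the lncRNA design, and 18.0 to 260 in the nonbrain tissues. It rose by 4.67 on the log2 scale (SE 0.79, n = 4 against 4, limma adjusted p = 0.0020), and did not pass the threshold in the splice junction design alone (adjusted p = 0.073). Its value was 4.65% to 7.66% of that of Meg3 in the brain tissues and 9.33% to 18.5% in the nonbrain tissues, and the limit on strand named for Rtl1 applies here too.

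Downstream of Meg3, XLOC_011078, a 2-exon model with no GENCODE gene on its strand, rose by 4.00 (SE 0.50). Gm26945, a single exon within the span of Rian, read 2135 to 10132 in the brain tissues of the lncRNA design and 38.6 to 224 in the others, and rose by 4.15 (SE 0.56). Past Rian, XLOC_011090 rose by 3.55 (SE 0.48), Gm37899, a model of 4 isoforms with 3 snoRNA genes in its span, by 4.44 (SE 0.53), and B830012L14Rik by 3.18 (SE 0.50). With only transcripts that match the annotation, B830012L14Rik did not pass the threshold (1.81, limma adjusted p = 0.32). XLOC_012168, a 325-nt exon of the minus strand within the span of Rtl1, rose by 3.31 (SE 0.66), but not past the threshold in the splice junction design alone (limma adjusted p = 0.070). Of the 10 models that rose, all but XLOC_011085 had whole brain as the lowest brain tissue in the lncRNA design, at 0.134 to 0.462 of the regional median. Whole brain was also the lowest for 41.3% of all features with a value of at least 10 in a brain tissue of that design. Between the end of Mirg and Dio3 a stretch of 439 kb held no assembled model.

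Dio3os, the noncoding RNA that starts beside Dio3 on the other strand, was the exception among the 11. In the lncRNA design it was highest in kidney, at 596, followed by the tissue labelled testis at 340 and heart at 281. It read 106 in whole brain, 193 in cerebellum, 37.9 in cortex, 148 in olfactory bulb and 111 in liver. Its groups overlapped, and its log2 fold change was -1.26 (SE 0.61, n = 4 against 4, limma adjusted p = 0.15). With quantile normalization it was -2.03 and passed the threshold (adjusted p = 0.023). In kidney it read 33.4 in the splice junction design, again the highest of the 8 tissues, where Dio3 had no fragment.

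**Figure D5:**
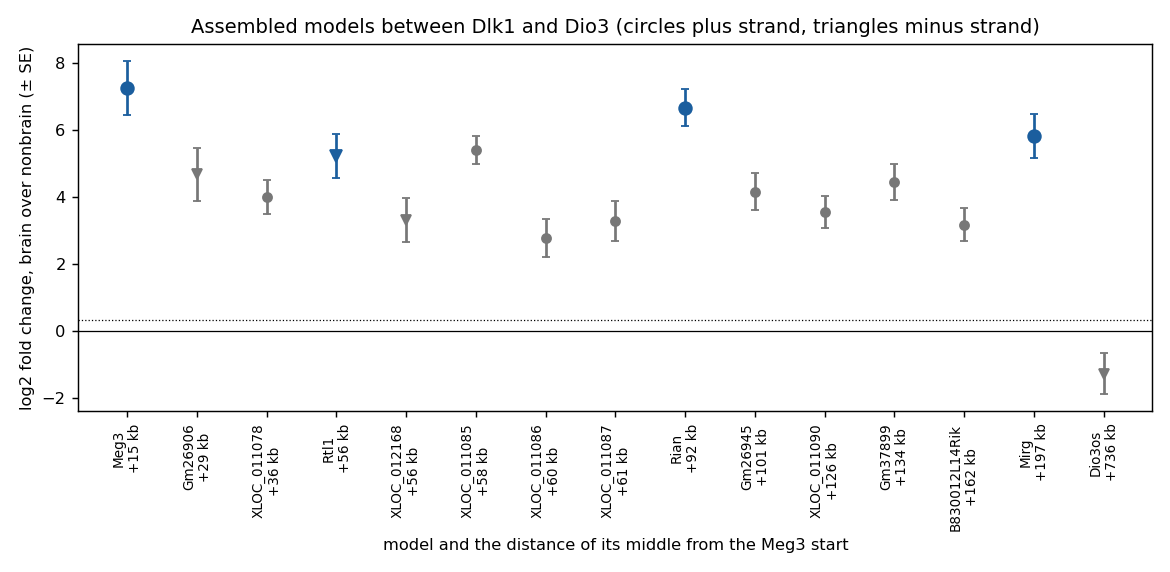
Log2 fold change of brain over nonbrain tissues (± SE, n = 4 against 4) for the 15 models between Dlk1 and Dio3 with a mean value of at least 10, in order along the chromosome, with the 4 member genes in blue, other models in grey and the median of all features as a dotted line. All but Dio3os lie above 2.7.

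Genes that work with or lie near the cluster were counted in the same fit, against 22.8% of all features called higher and 8.61% called lower in brain. Genes low in nonbrain tissues can reach the minimum mean value through brain, which favours a rise, here as in all features. Nonbrain means of log2(value + 1) were 0.95 for Begain and 0 for Dner, named below. Of 17 genes in or next to the cluster that were tested, 5 rose and none fell. Begain, which encodes a synaptic protein and lies upstream of Dlk1, rose by 5.87 (SE 0.87), B830012L14Rik as above and Mok, a kinase gene, by 2.82 (SE 0.68). The median of the 17 was 0.26, below that of all features. Of 18 Notch pathway genes, to which Dlk1 is related, 3 rose and 4 fell. Dner, a neuronal Notch ligand, rose by 7.01 (SE 0.43) and Hey1, a Notch target, by 3.50 (SE 0.96), while Hes1, another target, fell by 2.17 (SE 0.61). Hey1 did not pass the threshold without whole brain, cortex or kidney (limma adjusted p = 0.064, 0.057 and 0.052), nor Hes1 without cerebellum, olfactory bulb, kidney or the tissue labelled testis (0.065, 0.070, 0.055 and 0.055).

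Of 22 thyroid hormone genes, 5 rose and 2 fell, where 22.8% of all features were called higher and 8.61% lower. The median of the 22 was 0.14, against 0.35 for all features. The same shares of all features apply to the lists that follow. Dio2, the deiodinase that activates thyroid hormone, rose by 7.80 (SE 1.07) and Slco1c1, a thyroxine transporter of brain vessels, by 7.53 (SE 0.43), whereas Dio1, the deiodinase of liver and kidney, fell by 5.36 (SE 1.46). The retrotransposon Gag-like family, to which Rtl1 belongs, had 11 genes listed and 6 tested. Of these 6, 5 rose and none fell, with a median of 2.40. The largest rises were in Rtl6 at 4.16 (SE 0.61), Peg10 at 3.31 (SE 0.58) and Rtl8b at 1.99 (SE 0.55). The 5 that rose had low nonbrain means of log2(value + 1), 0.95 to 2.49. So did Slco1c1 at 0.81 and Dio2 at 2.08, and Ndn at 0.42, Nnat at 0.92 and Usp29 at 2.34 among the imprinted genes below. In such genes the minimum mean value favours a rise. Of 26 imprinted genes of other clusters, 13 rose and 3 fell, with a median of 1.70. The largest changes were rises, in Usp29, a neighbour of Peg3, at 9.22 (SE 0.58), Ndn, the Necdin gene of the Snrpn cluster, at 5.31 (SE 0.58), and Nnat, which encodes neuronatin, at 4.77 (SE 0.84). Of 13 genes of microRNA processing, Drosha, the nuclear enzyme that cuts primary microRNAs, rose by 2.04 (SE 0.58) and none fell. Without single tissues some of these calls were lost, as limma adjusted p-values show. Dio1 read 0.056, 0.055 and 0.059 without whole brain, cortex and olfactory bulb. Rtl8b read 0.055, 0.063 and 0.051 without whole brain, cortex and the tissue labelled testis, and Drosha 0.062, 0.066 and 0.056 without whole brain, cortex and olfactory bulb.

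Over the 8 tissues, with both designs averaged, the 4 called genes followed each other closely, with Pearson's r from 0.967 for Rtl1 with Rian to 0.994 for Meg3 with Mirg. These are descriptions over 8 points that share libraries and a split into brain and nonbrain. Outside the region, among 12505 GENCODE genes with a mean value of at least 100, the closest to Meg3 were Gm19938 (r = 0.991), Gm42608 (0.990) and Gm37731 (0.988). The closest to Rtl1 were Gm37686 (0.995), Gm37363 (0.992) and Gm26606 (0.991). Close to Rian were the neuronal genes Jakmip3 (0.994) and Unc80 (0.993), and those closest to Mirg were Gm42608 (0.994), Snhg14 (0.990) and Gm28320 (0.989). Dlk1 and Dio3, which rest on few fragments, reached r of 0.666 with each other and 0.276 to 0.442 with the 4 called genes. The closest outside gene was Suv39h1 for Dlk1 (r = 0.901) and Gpkow for Dio3 (0.988).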

How the data were processed

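RNA of 8 tissues was made into stranded libraries, captured with each of 2 probe designs and sequenced as paired reads. Per the study's methods, the authors aligned reads to GRCm38 with TopHat2, and their Cufflinks 2.2.1 assemblies, one from every library and guided by GENCODE, were merged. The deposited signal values are the authors' Cuffnorm 2.2.1 normalized fragment estimates per transcript and library. Sums over a gene model were whole multiples, within 0.1 and up to 20 steps, of a step per library, which gave fragments. Single transcripts have fractional values, so no count model was run.

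Values were summed per GENCODE M21 gene, or per assembled model where no gene overlapped. Tissue classes (n = 4 tissues in each) were compared with limma 3.58.1 in R 4.3.3, with a trend, on log2(value + 1) averaged over designs, for 30790 features whose mean value reached 10, calling a two-sided Benjamini-Hochberg adjusted p under 0.05. Designs were compared with tissue as a factor, and their difference in brain effect on the difference per tissue. A fold change on this scale understates that of low genes. The fits were tested on simulated data. Alternatives were the pseudocount, the filter, the scaling, 1 design, the assembled model as the unit, only transcripts that match the annotation (strict matching) and leaving out each tissue. Genes named were the 6 members, models of the region past the filter, the 3 largest called changes per list, and the 3 genes most alike to each member by Pearson's r (for Dlk1 and Dio3 only the first is printed, and 1 gene alike to Rian is not reported here). The members and lists were chosen with earlier results of these data known. Motif and microRNA sequences came from RefSeq on GRCm38.p6. Python 3.11.15, NumPy 2.4.6 and pandas 2.3.3 were used. p-values describe the spread between tissues, not between mice.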

Additional observations from a re-analysis of the deposited data

Results flagged for a closer look

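Of the 76 groups of 4 tissues examined, 10 had a tissue far from the other 3 by Dixon's 95% criterion, which chance meets in about 1 in 20 groups. Where the other 3 tissues read 0, any fragment meets the criterion, so that rate does not apply. This holds for Dlk1 and XLOC_011085 in the lncRNA design and for Dio3 in the splice junction design. Whole brain stood apart from the other brain tissues for Dlk1 in the lncRNA design, at 3.91, and in the splice junction design, at 34.7. It also stood apart, on the low side, for Gm37899 in the splice junction design at 2.89, and for XLOC_012168 at 227 in the lncRNA design and 0 in the other. The tissue labelled testis stood above the other nonbrain tissues for Dlk1 in the splice junction design, at 5.33 (10 fragments), and for XLOC_011085 in the lncRNA design, at 1.14 (1 fragment). Liver stood apart for Dio3 in the splice junction design, at 0.870, which is 1 fragment, and for the share of TCONS_00030087 in Rtl1 in the lncRNA design, at 99.98% on 6 fragments. Kidney was below the other nonbrain tissues in the share of TCONS_00027823 in Rian, at 3.70% (455 fragments).

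For 9 of the 15 models of the region that were tested, the difference between brain and nonbrain tissues was larger in the lncRNA design than in the splice junction design, as tested with limma, while 18.7% of all features differed between the designs in either direction. On the log2 scale this difference between the designs was 3.33 for XLOC_011078 (adjusted p = 0.0025), 5.07 for XLOC_011086 (0.0059), 5.06 for XLOC_011087 (0.0088), 3.91 for Gm26945 (0.0014), 3.47 for XLOC_011090 (0.0016), 2.05 for Gm37899 (0.0078), 3.60 for B830012L14Rik (0.00095), 4.57 for Gm26906 (0.0058) and 5.38 for XLOC_012168 (0.0075). In all of these except Gm26906 the nonbrain libraries of the splice junction design were at 0, so the size of the difference depends on the pseudocount. None of the 4 called genes was among them.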

How the results depend on the processing

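The log2 fold changes of Meg3, Rtl1, Rian and Mirg kept their direction and stayed past the threshold under every alternative that gave a value, for brain against nonbrain and for the designs. Only strict matching gave no value for Rtl1. Without 1 tissue the brain fold change was 6.83 to 7.97 for Meg3, 4.72 to 5.71 for Rtl1, 6.20 to 6.98 for Rian and 5.43 to 6.24 for Mirg.

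Counts over all features moved more. Features higher in brain were 7031, and 3771 with a mean value of at least 100, 3830 with the splice junction design alone and 3004 with strict matching. Features lower in brain were 2651, and 1744 with equal totals without ERCC, 5064 with quantile normalization, 1498 with the lncRNA design alone and 1667 with strict matching. Without 1 tissue the counts were 5511 to 7132 higher and 1522 to 3030 lower. Without cerebellum, cortex or olfactory bulb, 1713, 1522 and 1737 were lower. Quantile normalization split the calls into 5395 higher and 5064 lower and moved the median of all features from 0.35 to -0.19, and equal totals gave 8156 and 1744 with a median of 0.64.

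Of the other models of the region, 10 were called higher in brain, but 2 with strict matching, where fewer models enter and B830012L14Rik had a value of 1.81 that did not pass the threshold (adjusted p = 0.32), and 0 were called lower, but 1, Dio3os, with quantile normalization. In the splice junction design alone XLOC_011086, Gm26906 and XLOC_012168 did not pass the threshold (adjusted p = 0.26, 0.073 and 0.070). Of 432 values for single models and list genes under alternatives, 402 kept their side of the threshold, 29 no longer passed it and none reversed. Few fragments lie behind Dlk1, Dio3 and the nonbrain values of the splice junction design, and depth, probes and expression were not separated there. The exception is Dlk1 in whole brain of the splice junction design, with 120 fragments.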
